A study of Mus musculus with 9 samples.

Results

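Growth hormone acts on the liver through its receptor and the transcription factors STAT5A and STAT5B, and 9 genes of that axis were examined in liver RNA from mice given antibiotics and from control mice. The genes were chosen by symbol and comprised the receptor Ghr, the transcription factors Stat5a and Stat5b, the secreted products Igf1 and Igfals, the feedback inhibitors Socs2 and Cish, the repressor Bcl6 and the fatty acid elongase Elovl3. All 9 were found among the 54393 genes of the deposited table, and all 9 were among the 14873 genes with enough counts to be tested. The antibiotics group comprised 4 libraries, labelled replicates 1, 2, 3 and 5, from mice given non-absorbable antibiotics to remove their gut bacteria. The control group comprised 5 libraries, replicates 1 to 5, from conventional mice that received none. All mice are labelled as strain C56Bl/6j on the purified diet AIN-76a. The labels give neither age, nor the hour of collection, nor the names of the antibiotics. The study's question is how liver gene expression depends on gut bacteria.

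In rodents the pituitary releases growth hormone in pulses, more sharply separated in males than in females. The bound receptor activates the kinase JAK2, which phosphorylates STAT5, and STAT5 then enters the nucleus and switches genes such as Igf1, Igfals, Socs2 and Cish on. Bcl6 is repressed by growth hormone in mouse liver and its product occupies many of the same DNA sites as STAT5, with the opposite effect on transcription. Sex differences in liver transcripts of mice depend largely on this pulse pattern.

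STAT5 binds the palindrome TTCNNNGAA, which reads the same on both strands. RefSeq start-site windows of 300 bases (250 before to 50 after an annotated start, GRCm38.p6) were matched for 7 of the 9 genes, and Socs2 and Elovl3 had no entry. The motif was present in 5 of the 13 windows of these genes, which belonged to 3 genes, Cish, Bcl6 and Igfals, against 8.30% of all 32851 windows and 9.55% of 27025 genes. One window of each of the 3 genes is shown because their transcripts differed several-fold between individual libraries, with each motif match in capitals. In the Cish window the first match begins at the annotated start and the second lies 11 bases after it, with no overlap.
Cish, chr9:107296409-107296708, plus strand: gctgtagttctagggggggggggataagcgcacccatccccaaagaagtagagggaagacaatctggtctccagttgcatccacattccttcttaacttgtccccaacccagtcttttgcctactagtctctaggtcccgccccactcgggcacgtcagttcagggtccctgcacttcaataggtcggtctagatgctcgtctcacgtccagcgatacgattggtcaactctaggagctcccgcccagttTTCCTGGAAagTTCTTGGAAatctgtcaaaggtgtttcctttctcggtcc
Bcl6, chr16:23981234-23981533, minus strand: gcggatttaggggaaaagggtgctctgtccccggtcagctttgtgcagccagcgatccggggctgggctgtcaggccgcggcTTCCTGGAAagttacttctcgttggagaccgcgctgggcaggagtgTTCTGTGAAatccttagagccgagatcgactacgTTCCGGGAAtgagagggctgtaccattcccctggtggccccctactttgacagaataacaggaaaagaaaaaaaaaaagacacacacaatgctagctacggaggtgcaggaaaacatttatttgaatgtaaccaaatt
Igfals, chr17:24877981-24878280, plus strand: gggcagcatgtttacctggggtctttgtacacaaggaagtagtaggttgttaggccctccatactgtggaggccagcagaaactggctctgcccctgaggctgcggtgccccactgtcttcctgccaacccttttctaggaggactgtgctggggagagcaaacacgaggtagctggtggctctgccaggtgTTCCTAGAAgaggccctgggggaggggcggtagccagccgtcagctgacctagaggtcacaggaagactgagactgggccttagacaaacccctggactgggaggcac
A match describes these letters and says nothing of STAT5 binding in these livers. The Bcl6 window shown holds 3 matches, and the other Bcl6 window, at the upstream start, holds 1.

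Library totals ran from 15422891 to 59179622 estimated counts in the antibiotics group and from 28156248 to 49628737 in the control group. Antibiotics library 5 was the deepest of all 9 and the other 3 antibiotics libraries were shallower than every control. The hepatocyte markers Alb, Ttr, Apoa1, Cps1 and Serpina1a together measured 74900 to 86100 CPM (counts scaled to library size) with antibiotics and 75500 to 90700 CPM in controls. No tested marker of Kupffer, endothelial, stellate, bile duct, adipose, lymphoid or pancreatic cells passed in either direction, and the summed level of each of these 7 lists overlapped between the groups. Only 2 of 5 adipose, 4 of 5 lymphoid and 1 of 5 pancreatic markers had enough counts to be tested. Among pancreatic markers Prss2, Cel and Pnlip had no count in any library. In whole liver, fewer cells of a type and less RNA per cell cannot be told apart. Each library held 745 or more counts of Ddx3y, which is Y-linked, and 5 or fewer of Xist. The mRNAs encoded by mitochondrial DNA, which can track RNA quality, had mean log2 levels relative to controls of 0.35, 0.58, 0.41 and -0.06 in antibiotics libraries 1, 2, 3 and 5, and of -0.16 to 0.27 in controls.

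Per kilobase of annotated exon, the elongase Elovl3 was the most abundant of the 9 transcripts at a mean of 131 CPM per kilobase over the 9 libraries. Ghr followed at 49.0, Igf1 at 34.4, Igfals at 18.4 and Stat5b at 8.19 CPM per kilobase. Lower still were Bcl6 at 4.99, Cish at 3.52, Socs2 at 1.82 and Stat5a at 1.33 CPM per kilobase. The order Elovl3, Ghr, Igf1, Igfals held in all 9 libraries, and Igfals exceeded Stat5b in 8. Below that, neighbours changed places between libraries: Bcl6 exceeded Cish in 5 of 9 libraries and Socs2 exceeded Stat5a in 5 of 9. These levels depend on the exon length taken from the annotation.

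Of the 9 genes 1 differed between the groups, the elongase Elovl3, which fell, where 2.68% of all tested genes differed and 1.05% fell (edgeR's quasi-likelihood test, Benjamini-Hochberg adjustment over 14873 genes). The groups did not overlap for 2 of the 9 genes, Elovl3 and Stat5b, against 8.88% of all tested genes. Both were lower in every antibiotics library than in every control, a pattern that 4.29% of all tested genes had, and 0 of the 9 were higher throughout, against 4.59%. Before adjustment 4 of the 9 had p under 0.05, against 18.5% of all tested genes. The receptor Ghr and the second transcription factor Stat5a had estimates near 0 with narrow intervals. For the feedback genes Socs2 and Cish and for Bcl6 the libraries of each group differed so much among themselves that changes of more than 2-fold in either direction lay inside the interval of the difference, except that for Bcl6 only a fall of that size did. The median log2 fold change of the 9 genes was 0.09, and that of all tested genes was -0.01.

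**Figure D1:**
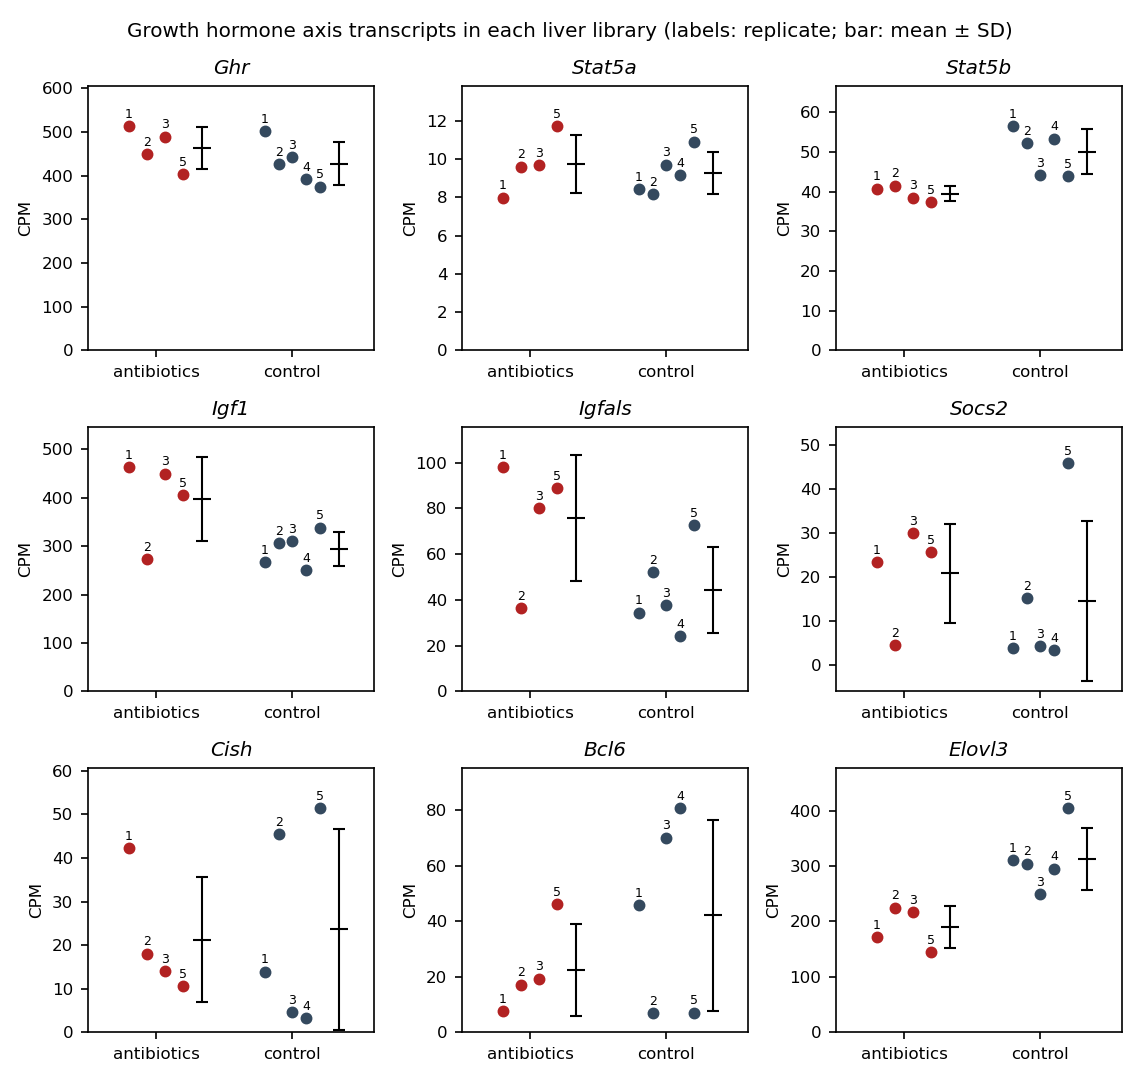
Level of each of the 9 transcripts in every library, in CPM on a linear axis, with antibiotics libraries (red) left of controls (dark) and replicate numbers beside the points. Black bars give the mean ± SD of 4 antibiotics and 5 control libraries. Stat5b and Elovl3 are the panels in which the groups do not overlap.

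**Figure D2:**
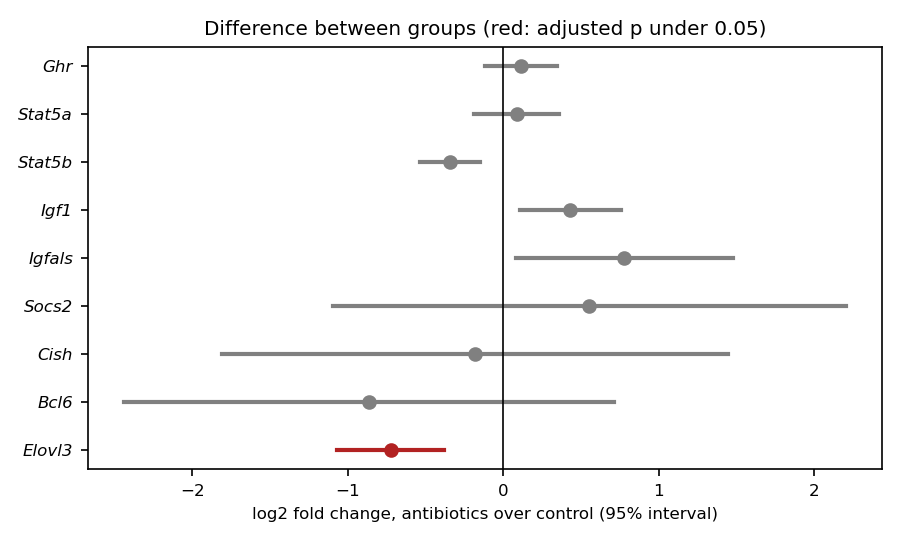
Log2 fold change of antibiotics over control for the 9 genes (points) with the 95% interval of each from the edgeR fit, not adjusted for the number of genes. Elovl3 (red) passed at an adjusted p under 0.05, and the intervals of Socs2, Cish and Bcl6 span more than 3 log2 units each.

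Ghr encodes the growth hormone receptor, and a shortened form of it is the circulating binding protein. Its transcript (chromosome 15, 3317760 to 3583492, GRCm38) measured 513, 449, 489 and 403 CPM in antibiotics libraries 1, 2, 3 and 5, against 502, 427, 443, 392 and 375 CPM in control libraries 1 to 5. The groups overlapped almost throughout, and the log2 fold change was 0.12 ± 0.11 (SE, 95% interval -0.11 to 0.35, adjusted p = 0.600). The kinase Jak2, which the receptor activates, averaged 18.3 ± 1.56 CPM with antibiotics (SD, n = 4) and 19.3 ± 1.76 CPM in controls (SD, n = 5), with an adjusted p of 0.671. Jak2 is described although it was chosen after its values were seen.

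Stat5b, the form of STAT5 that carries most of the male pattern of liver transcripts in mice, lies on chromosome 11 (100780731 to 100850724). It measured 40.8, 41.5, 38.5 and 37.3 CPM in antibiotics libraries 1, 2, 3 and 5, against 56.5, 52.2, 44.2, 53.4 and 44.0 CPM in control libraries 1 to 5. Every antibiotics library lay below every control, and the antibiotics libraries were close to one another (CV 4.99%, against 11.3% in controls). The log2 fold change was -0.34 ± 0.09 (SE, 95% interval -0.54 to -0.15), which edgeR did not call (adjusted p = 0.0646) and DESeq2 did (adjusted p = 0.0114). With edgeR it was called without control library 3 (adjusted p = 0.0435) or control library 5 (adjusted p = 0.0379), the 2 controls with the lowest values. Leaving out any other single library gave no call, with adjusted p from 0.110 to 0.172. With all libraries limma-voom did not call it either (adjusted p = 0.0683).

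Stat5a, its neighbour on chromosome 11 (100859351 to 100885169), measured 7.97, 9.59, 9.67 and 11.7 CPM in antibiotics libraries 1, 2, 3 and 5, against 8.42, 8.15, 9.69, 9.14 and 10.9 CPM in control libraries 1 to 5. The groups overlapped fully (log2 fold change 0.09 ± 0.12 SE, 95% interval -0.18 to 0.36, adjusted p = 0.758). Per kilobase, Stat5b made up 83.9 ± 2.7% of the summed Stat5a and Stat5b level with antibiotics (SD, n = 4) and 87.3 ± 2.5% in controls (SD, n = 5), with overlapping ranges of 80.4 to 86.8% and 83.9 to 89.6%. The longest Stat5b transcript aligned to a Stat5a transcript over 2332 nt at 90.9% identity, so some reads of one may have been assigned to the other. Exons of Stat5a also overlap those of Stat3 on the opposite strand, which measured 80.6 to 95.8 CPM, above Stat5a in every library.

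Socs2 encodes a suppressor of cytokine signalling that is induced by STAT5 and limits growth hormone signalling. Its transcript (chromosome 10, 95385362 to 95417180) measured 23.4, 4.52, 30.0 and 25.7 CPM in antibiotics libraries 1, 2, 3 and 5, against 3.93, 15.2, 4.29, 3.47 and 45.8 CPM in control libraries 1 to 5. Library 2 was thus the single low one with antibiotics, while libraries 2 and 5 were the high ones among controls, and the groups overlapped. The log2 fold change of 0.55 ± 0.75 (SE) had an interval of -1.10 to 2.21 (adjusted p = 0.748). Leaving out control library 5 moved it to 1.63 (adjusted p = 0.150). Socs2 shares 452 nt at 99.6% identity with Gm9847 and the same length at 95.6% with Gm8000, so its counts could have been split among these copies.

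Cish, which encodes another STAT5-induced inhibitor of cytokine receptors (chromosome 9, 107296026 to 107302784), measured 42.3, 18.1, 14.0 and 10.6 CPM in antibiotics libraries 1, 2, 3 and 5. In control libraries 1 to 5 it measured 13.9, 45.5, 4.57, 3.20 and 51.4 CPM. The control libraries spanned the whole antibiotics range and went beyond it on both sides. The fitted log2 fold change was -0.18 ± 0.74 (SE, 95% interval -1.81 to 1.45, adjusted p = 0.929). Its sign turned positive without antibiotics library 5 (0.07), without control library 2 (0.21) or without control library 5 (0.30).

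Bcl6 (chromosome 16, 23965052 to 23988852) had the reverse order of libraries. It measured 7.58, 17.2, 19.4 and 46.1 CPM in antibiotics libraries 1, 2, 3 and 5, against 45.9, 6.99, 70.1, 80.7 and 7.16 CPM in control libraries 1 to 5. Control libraries 2 and 5, which had the highest Cish of all, had the lowest Bcl6, and control libraries 3 and 4 were the opposite. Its log2 fold change was -0.86 ± 0.72 (SE, 95% interval -2.44 to 0.71, adjusted p = 0.563). Leaving out single libraries gave values from -1.51 (without antibiotics library 5) to -0.49 (without control library 4), with no call.

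The spread within groups set Socs2, Cish and Bcl6 apart from other transcripts of like abundance. Pooled over both groups, the SD between libraries was 1.47 log2 units for Socs2, 1.49 for Cish and 1.5 for Bcl6, where the median of the 1000 tested genes nearest in level was 0.156, 0.142 and 0.133 for these genes in turn. At least 99.8% of those 1000 genes had an SD no larger than that of Socs2, Cish or Bcl6. Igfals also lay high, with an SD of 0.625 against a median of 0.126. Igf1 had 0.266 against a median of 0.135, and Elovl3 had 0.271 against 0.13. Of the 1000 genes nearest in level, 87.4% had an SD no larger than that of Igf1, and 89.9% for Elovl3. Ghr at 0.159, Stat5a at 0.193 and Stat5b at 0.133 varied about as much as other genes of their level. Over all 9 libraries Cish spanned 16.1-fold, Socs2 13.2-fold and Bcl6 11.6-fold, whereas Ghr spanned 1.37-fold.

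**Figure D3:**
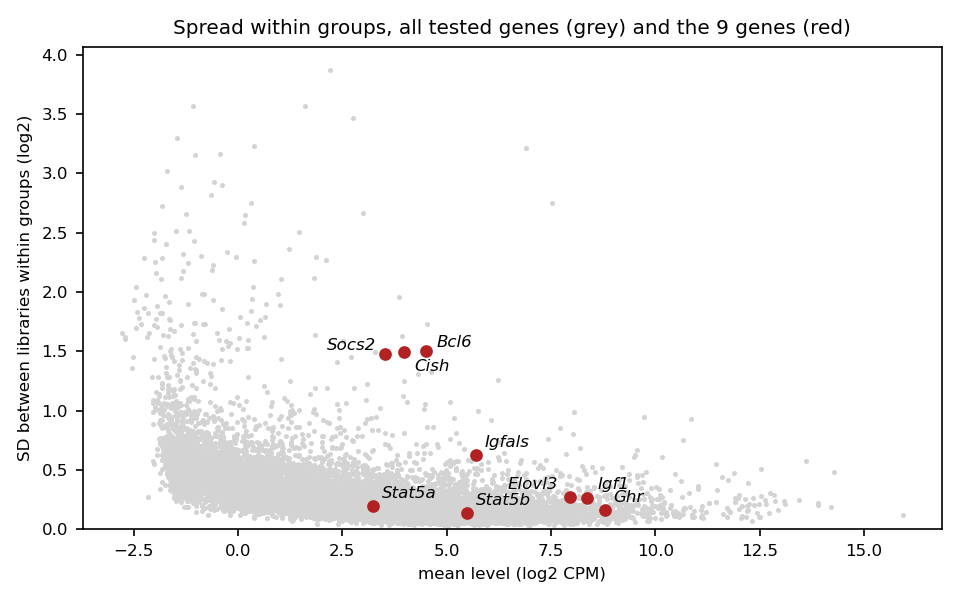
SD between libraries within groups (log2 units, pooled over antibiotics and control) against mean level (log2 CPM) for each of 14873 tested genes (grey), with the 9 genes in red. Socs2, Cish and Bcl6 lie together at SDs of 1.47 to 1.5, far above genes of the same level, and Stat5a, Stat5b and Ghr lie within the main cloud.

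Across the 9 libraries Cish and Bcl6 moved against each other. Pearson's r of their log2 CPM was -0.96 (exact permutation p = 8.27e-06, adjusted over the 36 pairs of the 9 genes p = 0.000298) and Spearman's rho was -0.98 (exact permutation p = 4.96e-05, adjusted p = 0.00179), two-sided. Without control libraries 4 and 5, the farthest from the median of Cish, r was -0.94. Levels were unevenly spread, with no library between 18.1 and 42.3 CPM for Cish or between 19.4 and 45.9 CPM for Bcl6. Those gaps remain without control libraries 4 and 5, so r rests in part on separate ranges. The order of Cish and the reverse order of Bcl6 were the same in the 4 antibiotics libraries, and in controls they differed by the exchange of libraries 2 and 5. With 4 and 5 libraries a group, no correlation within a group is given. Control libraries 2 and 5, alike in both genes, differed in depth, at 49628737 and 28156248 counts. The mitochondrial mRNA score was -0.14 and -0.16 in those control libraries, and 0.35 in antibiotics library 1, which also had high Cish and low Bcl6. The summed Kupffer cell markers were highest in control library 2, at 387 CPM, while antibiotics library 1 and control library 5 had 132 and 160 CPM. Any relation of depth, mitochondrial mRNA or Kupffer cell markers to Cish and Bcl6 was not tested.

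**Figure D4:**
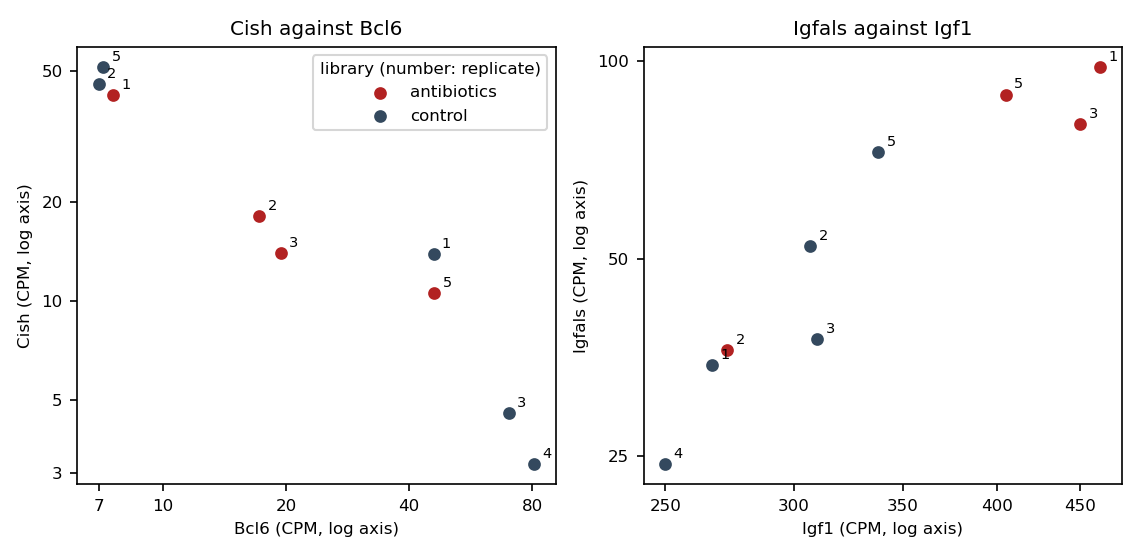
Cish against Bcl6 (left) and Igfals against Igf1 (right) in each of the 9 libraries, in CPM on log axes, with antibiotics libraries in red, controls in dark and replicate numbers beside the points. Cish is lower where Bcl6 is higher (r = -0.96) and Igfals is higher where Igf1 is (r = 0.94), with libraries of both groups along each line.

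Igf1, the hormone through which much of the growth effect is carried and which the liver supplies to the blood, lies on chromosome 10 (87858265 to 87937042). It measured 463, 273, 450 and 405 CPM in antibiotics libraries 1, 2, 3 and 5, against 267, 307, 310, 250 and 338 CPM in control libraries 1 to 5. Libraries 1, 3 and 5 with antibiotics exceeded every control and library 2 lay among the controls. The log2 fold change was 0.43 ± 0.15 (SE, 95% interval 0.11 to 0.76), and it did not pass (adjusted p = 0.149). Without antibiotics library 2 it was 0.58 and passed (adjusted p = 0.0355). Leaving out any other single library gave no pass, with adjusted p from 0.116 to 0.348.

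Igfals encodes the acid-labile subunit, which joins IGF1 and its main carrier IGFBP3 in a long-lived circulating complex (chromosome 17, 24865997 to 24882010). It measured 98.0, 36.3, 80.2 and 88.9 CPM in antibiotics libraries 1, 2, 3 and 5, against 34.4, 52.2, 37.7, 24.3 and 72.7 CPM in control libraries 1 to 5. The same 3 antibiotics libraries exceeded every control and library 2 again lay among the controls. The log2 fold change was 0.78 ± 0.32 (SE, 95% interval 0.08 to 1.48, adjusted p = 0.219), and without antibiotics library 2 it was 1.01 (adjusted p = 0.109). Igf1 and Igfals varied together over the 9 libraries, with Pearson's r of 0.94 (exact permutation p = 9.65e-05, adjusted p = 0.00174) and Spearman's rho of 0.97 (exact permutation p = 0.000165, adjusted p = 0.00298). These permutations ignored group, and the same 3 antibiotics libraries were highest for both genes. The p-values therefore also take in that shared difference between the groups. Without antibiotics libraries 1 and 3, the farthest from the median of Igf1, r was 0.95. Of the 36 pairs 3 passed by Pearson's r and 2 by Spearman's rho. The third was Igfals with Socs2, for which no r is given because Socs2 fell into separate ranges of 3.47 to 4.52 CPM in 4 libraries and 15.2 to 45.8 CPM in 5. The carrier Igfbp3, chosen after its values were seen, averaged 11.4 ± 1.88 CPM with antibiotics and 13.3 ± 4.16 CPM in controls (SD, n = 4 and 5, adjusted p = 0.619).

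Elovl3 encodes an enzyme that lengthens very long chain fatty acids, and its liver transcript is higher in male than in female mice (chromosome 19, 46131897 to 46135694). It measured 172, 225, 217 and 145 CPM in antibiotics libraries 1, 2, 3 and 5, against 311, 304, 249, 295 and 404 CPM in control libraries 1 to 5. The highest antibiotics library lay below the lowest control. The transcript fell to 190 ± 37.7 CPM with antibiotics (SD, n = 4), against 313 ± 56.3 CPM in controls (SD, n = 5), which is -0.72 ± 0.16 on the log2 scale (SE, 95% interval -1.07 to -0.38, edgeR adjusted p = 0.0388). The adjusted p was 0.116, 0.0778 and 0.103 without antibiotics libraries 1, 3 and 5, and 0.0667, 0.0679 and 0.0645 without control libraries 1, 2 and 4, with log2 fold changes from -0.80 to -0.61. Elovl3 was lowest in antibiotics library 5, the deepest, whose mitochondrial mRNA score of -0.06 lay among those of the controls. Any relation of depth or mitochondrial mRNA to Elovl3 was not tested. The gene overlaps Pitx3 on the opposite strand, which had at most 1 count in any library.

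The levels of Elovl3 were set against those of 12458 other genes averaging 1 CPM or more. The 3 genes whose levels over the 9 libraries lay closest to those of Elovl3 were Cars, Slc39a6 and Ddc. Their root mean square differences from Elovl3, on the log2 scale after centring each gene, were 0.162, 0.164 and 0.176, where Elovl3 itself had a root mean square deviation of 0.433. Because they were picked for likeness to Elovl3, which differed between the groups, their own differences follow from that choice and are given as a description. Cars, the cytosolic cysteinyl-tRNA synthetase, had a log2 fold change of -0.68, the zinc transporter Slc39a6 had -0.66, and the aromatic amino acid decarboxylase Ddc had -0.51.

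The other elongases gave no call with edgeR, DESeq2 or voom, and 1 of the 5 tested had an unadjusted p under 0.05, where 18.5% of all tested genes did. Elovl6, which lengthens palmitate, averaged 265 ± 129 CPM with antibiotics and 378 ± 131 CPM in controls (SD, n = 4 and 5, adjusted p = 0.398). Elovl5, which acts on polyunsaturated chains, averaged 746 ± 222 CPM with antibiotics and 892 ± 178 CPM in controls (adjusted p = 0.526). Elovl7, at 0.298 ± 0.104 CPM with antibiotics and 0.625 ± 0.210 CPM in controls, was scarce in both, with an adjusted p of 0.165. The groups did not overlap for 1 of the 5, Elovl7, against 8.88% of all tested genes. Estimates were lower with antibiotics for all 5, as for Elovl3, and their log2 fold changes had a median of -0.26.

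Lists of related genes, which hold none of the 9, were counted next. Of 23 tested genes of growth hormone receptor signalling (24 listed, Socs1 too scarce to test), 1 rose and 0 fell, where 1.63% of all tested genes rose. An unadjusted p under 0.05 was reached by 4 of the 23, a share near the 18.5% of all tested genes, and the median log2 fold change was -0.07. The gene that rose was Prlr, the prolactin receptor, a close relative of Ghr that also signals through STAT5. It measured 57.0, 33.7, 59.1 and 47.5 CPM in antibiotics libraries 1, 2, 3 and 5, against 35.4, 34.4, 31.2, 24.7 and 28.9 CPM in control libraries 1 to 5. Antibiotics library 2 lay among the controls for Prlr, as it did for Igf1, Igfals and Socs2. This was a log2 fold change of 0.67 ± 0.16 SE at an adjusted p of 0.0474. Prlr passed when antibiotics library 2 was left out (adjusted p = 0.0186), while leaving out any of the other 8 libraries gave adjusted p from 0.0633 to 0.137, and voom gave 0.0569. The phosphatase Ptpn2, which acts on JAK kinases and STAT proteins, averaged 7.58 ± 0.718 CPM with antibiotics and 9.75 ± 0.652 CPM in controls (adjusted p = 0.0707). The adaptor Sh2b3, an inhibitor of JAK2, averaged 19.0 ± 2.07 CPM with antibiotics and 15.1 ± 1.04 CPM in controls (adjusted p = 0.0722). The groups did not overlap for Ptpn2 and Sh2b3, which makes 2 of the 23, a share near the 8.88% of all tested genes.

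Of 11 tested genes of the IGF system, 1 fell and 0 rose, where 1.05% of all tested genes fell. The list held 15 genes, of which Igf2, Pappa, Pappa2 and Stc2 had 21 counts or fewer. An unadjusted p under 0.05 was reached by 4 of the 11, against 18.5% of all tested genes, and the median log2 fold change was -0.02. Igfbp1, an IGF-binding protein that insulin represses in liver, fell to 28.0 ± 9.66 CPM with antibiotics (SD, n = 4), against 76.0 ± 32.5 CPM in controls (SD, n = 5). In antibiotics libraries 1, 2, 3 and 5 it measured 26.1, 41.9, 19.5 and 24.6 CPM, against 75.2, 48.9, 99.2, 117 and 40.1 CPM in control libraries 1 to 5. Antibiotics library 2, highest of its group, exceeded control library 5, the lowest control. On the log2 scale Igfbp1 changed by -1.44 ± 0.32 (SE, adjusted p = 0.0404). The call ended without antibiotics libraries 1, 3 and 5 (adjusted p = 0.116, 0.117 and 0.120) and without control libraries 1, 3 and 4 (0.0712, 0.0573 and 0.0706). Igfbp4, the most abundant binding protein named here, averaged 1066 ± 94.0 CPM with antibiotics and 841 ± 91.3 CPM in controls (adjusted p = 0.0980).

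Of 11 tested liver transcription factors that respond to growth hormone or act with STAT5, 1 rose and 0 fell, where 1.63% of all tested genes rose. The list held 12 genes, with Cux2 too scarce to test. An unadjusted p under 0.05 was reached by 2 of the 11, a share near the 18.5% of all tested genes. The median log2 fold change was 0.25, against -0.01 for all tested genes. Onecut1, which encodes the growth hormone-induced factor HNF6 and was chosen after its values were seen, had an SD within groups of 1.73 log2 units, larger than the 1.49 of Cish. It measured 136, 14.4, 36.5 and 27.6 CPM in antibiotics libraries 1, 2, 3 and 5, against 4.72, 50.8, 9.44, 4.69 and 86.2 CPM in control libraries 1 to 5. Control libraries 2 and 5 and antibiotics library 1, the 3 libraries with the highest Cish and the lowest Bcl6, also had the highest Onecut1. Its log2 fold change was 0.77 ± 0.88 (SE, adjusted p = 0.689).

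Genes that differ between male and female mouse liver through growth hormone were counted in 2 lists. Of 16 male-biased genes 0 passed with edgeR, where 2.68% of all tested genes did. An unadjusted p under 0.05 was reached by 2 of the 16, against 18.5% of all tested genes. DESeq2 called 1 of the 16 and voom 0. Estimates were higher with antibiotics for 7 of the 16 and lower for 9, with a median log2 fold change of -0.05. Cyp4a12b, a fatty acid hydroxylase with a close relative in Cyp4a12a, averaged 103.9 ± 29.09 CPM with antibiotics and 80.04 ± 25.46 CPM in controls (SD, n = 4 and 5, adjusted p = 0.444). Mup7, a major urinary protein gene with many near-identical copies, measured 10850 ± 5124 CPM with antibiotics and 15830 ± 4154 CPM in controls (SD, n = 4 and 5, adjusted p = 0.384). Gstp1, a glutathione transferase, averaged 1065 ± 103 CPM with antibiotics and 1585 ± 450 CPM in controls (adjusted p = 0.133). Moxd1 had 0 to 39 counts in antibiotics libraries and 11 to 345 counts in controls (adjusted p = 0.246).

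Of 11 tested female-biased genes 4 rose and 0 fell, where 1.63% of all tested genes rose, and the median log2 fold change was 0.91. The other 10 genes listed had at most 29 counts in any library and were not tested. They were Cyp2b9, Cyp2b13, Cyp3a16, Cyp3a41a, Cyp3a41b, Cyp3a44, Sult2a1, Sult3a1, A1bg and Hao2, so the list says nothing of these. Estimates were higher with antibiotics for 9 of the 11 and lower for 2, Cyp2a4 (log2 fold change -0.20) and Prom1 (-0.05). These 2 and Abcd2 (0.08) are named after their values were seen. Fmo2, a flavin monooxygenase, measured 22.2, 14.2, 23.0 and 23.0 CPM in antibiotics libraries 1, 2, 3 and 5, against 9.93, 7.01, 8.16, 13.6 and 7.56 CPM in control libraries 1 to 5. The groups did not overlap (log2 fold change 1.15 ± 0.20 SE, adjusted p = 0.0189), and the adjusted p was 0.0669, 0.0646 and 0.0686 without antibiotics libraries 1, 3 and 5. Acot3, an acyl-CoA thioesterase of peroxisomes, measured 2.74, 4.18, 18.7 and 38.6 CPM in antibiotics libraries 1, 2, 3 and 5, against 1.54 to 2.86 CPM in controls, so that libraries 3 and 5 carried its rise (adjusted p = 0.0393). Without antibiotics library 5 its log2 fold change moved to 1.87, against 2.83 with all libraries, and over the 9 fits that left out 1 library the adjusted p ran from 0.0311 to 0.120. Atp6v0d2, a proton pump subunit, averaged 1.79 ± 0.410 CPM with antibiotics and 0.689 ± 0.332 CPM in controls (SD, n = 4 and 5, adjusted p = 0.0437). Among those fits Atp6v0d2 passed in 2, which omitted control library 3 (0.0173) or 5 (0.0498). Acot4, Fmo1 and Cyp17a1, chosen after their values were seen, had log2 fold changes of 0.94, 0.28 and 0.60 without passing (adjusted p = 0.0730, 0.118 and 0.187).

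**Figure D5:**
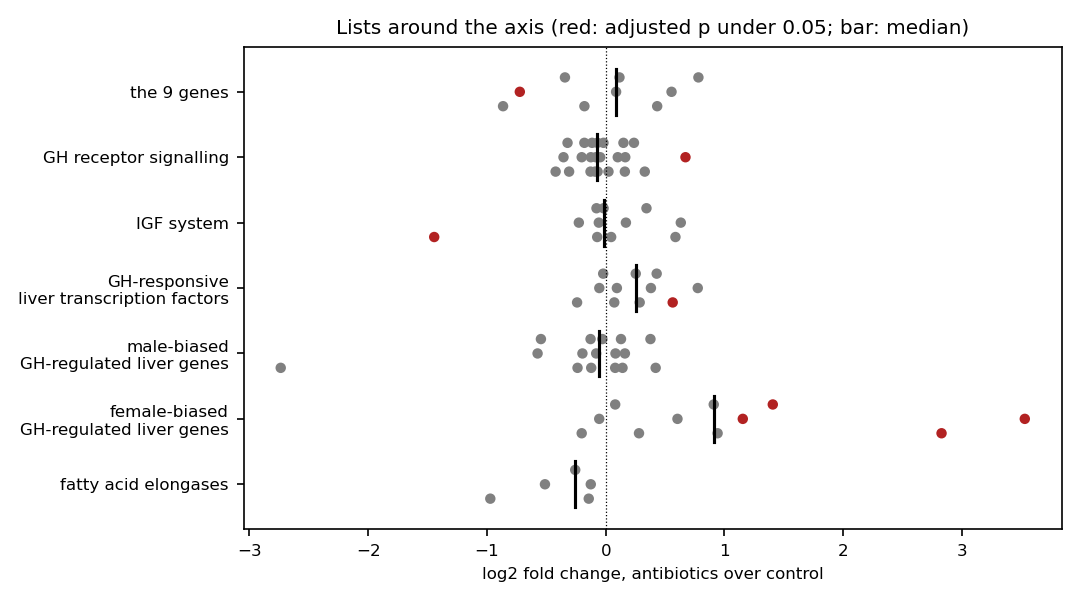
Log2 fold change of antibiotics over control for the tested genes of each list (points, red where the adjusted p was under 0.05) with the list median as a black bar. The female-biased list has its median at 0.91 and 4 called genes, and the male-biased list has its median at -0.05 and no called gene.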

How the data were processed

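The authors deposited estimated counts per gene, and the submitters' processing notes name Salmon and GRCm38. Its version and settings, the annotation release and any use of strand in counting are not given in these sources. Libraries were made from Trizol RNA of livers kept in RNAlater, with a stranded poly(A) kit, per the labels' protocols. The deposited values were already whole numbers and were used as they stood. All 54393 identifiers occur in GENCODE M21, which gave symbols, positions and exon lengths.

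Groups came from the sample titles. Genes were kept by filterByExpr of edgeR 4.0.16 (minimum count 10, minimum total 15), scaled by TMM and tested by quasi-likelihood with group as the single term (R 4.3.3). The threshold was an adjusted p of 0.05. CPM are on TMM-scaled libraries, and the SE is the log2 fold change over the square root of F. Log2 values per library used a prior count of 2. The biological coefficient of variation was 16.7%. The fit was tested on simulated data. Relations between genes used exact permutation of the 9 libraries without regard to group (scipy 1.17.1). Close copies (95% identity or more along 200 nt) were sought by BLAST+ 2.17.0, and of the 9 genes Socs2 had them.

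The named genes were the 9, the members of each list that passed or up to 4 with the smallest p, and the 3 nearest patterns. Of these, 2 genes that passed are not reported here, though they are counted in their lists. Members and lists were chosen with earlier results of these data known. Alternatives included DESeq2 1.42.0, limma-voom (3.58.1), other scalings and filters, thinning and omission of each library. No 2 libraries agreed within sampling noise (lowest chi-square per degree of freedom 20.2). Since no label ties a library to a mouse of its own, the p-values describe library-to-library spread, which may be technical.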

Additional observations from a re-analysis of the deposited data

Results flagged for a closer look

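Of 74 groups of libraries examined for 37 genes, 3 held a library far from the others, where chance gives about 1 in 20. Socs2 measured 45.8 CPM in control library 5, against 3.47 to 15.2 CPM in the other controls. Fmo2 measured 14.2 CPM in antibiotics library 2, against 22.2 to 23.0 CPM in the other antibiotics libraries. Onecut2, a transcription factor related to HNF6, measured 76.3 CPM in control library 3, against 46.6 to 55.0 CPM in the other controls.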

How the results depend on the processing

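The count of all tested genes that differed was 398. It was 976 with DESeq2, 20 at an adjusted p under 0.01, 937 at one under 0.10, and 36 to 455 without 1 library. Among the 9 genes 1 passed. The count was 2 with DESeq2 or at an adjusted p under 0.10, 0 at 0.01, and 0 to 2 without 1 library. Elovl3 kept its direction under all 19 alternatives and passed in 11. Other scalings moved the median of all genes by less than 0.1 (log2) and changed no call among the 9. Cish reversed with voom (0.33) and without antibiotics library 5 (0.07), control library 2 (0.21) or control library 5 (0.30), and Stat5a without antibiotics library 5 (-0.0238). Leaving out 1 library gave -0.0238 to 0.166 for Stat5a and -0.75 to 0.30 for Cish.

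The receptor signalling list had 1 call, 3 with DESeq2, 0 with voom or thinning, and 0 to 1 without 1 library. The IGF list had 1 call, 2 with DESeq2, and 0 to 2 without 1 library. The transcription factor list had 1 call and 1 to 2 without 1 library. The male-biased list had 0, and 1 with DESeq2. The female-biased list had 4, 2 after thinning, and 1 to 3 without 1 library. No cause of these shifts was tested.

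No label ties a replicate number to a shared litter or day. Deviations of same-numbered libraries correlated at 0.13, -0.04, 0.23 and 0.31 (replicates 1, 2, 3 and 5). These values are too few to decide whether the numbers mark pairs. A replicate block over these 8 libraries gave 179 genes in all, against 144 in the same libraries unpaired. Either fit gave 0 of the 9 genes, 0 in the receptor signalling list, 0 in the IGF list and 2 in the female-biased list. Antibiotics libraries 3 and 5 correlated best with the control of their own number, and antibiotics libraries 1 and 2 did not. The shallow antibiotics libraries 1, 2 and 3 limit what can be said of genes with few counts.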
